A study of Mus musculus with 16 samples.

Results

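The 8 genes described here encode proteins of the epidermal tight junction, and they were taken by symbol from the 50600 genes of a count table made from mouse footpad epidermis. They are the claudins Cldn1, Cldn4, Cldn7 and Cldn12, occludin (Ocln), the junctional adhesion molecule F11r, and the zonula occludens scaffolds Tjp1 and Tjp3. The rule that picks them uses no measured value, but the 8 genes were chosen with earlier results of these data known. Each symbol matched a single row, and all 8 genes passed the filter of at least 10 counts over all libraries that left 22155 genes for testing.

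Tight junctions seal the space between neighbouring epithelial cells. Claudins form the strands of the seal and set which ions and solutes may pass, occludin and the junctional adhesion molecules join the strands, and the zonula occludens proteins bind the tails of these membrane proteins inside the cell and tie them to actin. In the epidermis the functional junctions lie in the granular layer, below the cornified layer, and mice that lack claudin-1 die of water loss through the skin soon after birth.

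Epidermal cells came from the footpads of 16 female C57/B6J mice, 1 library per mouse and 4 mice per group. No engineered allele is named in the labels, and the mice ate, from 5 wk of age and for 3 wk, either the purified AIN-93M diet, labelled SYNTH and poor in ligands of the aryl hydrocarbon receptor (AhR-poor diet), or the same feed supplemented to 200 ppm with indole-3-carbinol, a plant compound from which such ligands form (I3C diet). All groups received a footpad injection of 50 μl of PBS, which held nothing else (vehicle) or 50 μg of papain, a plant protease used as an allergen, and were sampled after 6 hr. The epidermis was freed with dispase and dead cells were removed, and cages followed the diet, so that diet and cage cannot be told apart. Totals lay between 22500821 and 51844375 counts per library, and the values below are CPM, counts relative to the library total after adjustment by the trimmed mean of M-values (TMM), given in the order of the replicate codes.

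The label of the tissue was checked against markers fixed in a list. The basal keratinocyte markers (7 genes, Krt5 and Krt14 among them) summed to between 21069 and 37271 CPM in the 16 libraries, and the spinous markers (6 genes, Krt1 and Krt10 among them) to between 19015 and 44367 CPM. Other cells were present and differed with the groups. The 9 dermal fibroblast markers summed to 130 ± 37.1 CPM with vehicle and 532 ± 188 CPM with papain on the AhR-poor diet (mean ± SD, n = 4), against 11.3 ± 1.70 and 5.98 ± 4.49 CPM on the I3C diet, and all 9 were detected in each group. The 7 neutrophil markers went from 10.3 ± 0.937 to 346 ± 197 CPM on the AhR-poor diet and from 2.90 ± 1.33 to 68.7 ± 18.6 CPM on the I3C diet, with Ly6g at 0 in every group but AhR-poor papain. With papain on the I3C diet, Cxcr2, S100a9, S100a8 and Mmp9 had means of 24.2, 16.9, 16.6 and 10.1 CPM. Csf3r and Retnlg were at 0.739 and 0.0891 CPM there, all 6 named after their values were seen. Langerhans cell markers (6 genes) summed to between 878 and 1004 CPM with vehicle on the AhR-poor diet and to between 260 and 593 CPM on the I3C diet. Over all libraries, markers of eccrine glands (8 genes) summed to between 132 and 356 CPM, of macrophages (6) to between 9.65 and 242 CPM, and of T cells (6) to between 9.33 and 55.1 CPM. Of the eccrine markers, named after their values were seen, Slc12a2 and Krt77 had means of 140 and 85.2 CPM over all libraries. Krt7 was at 9.20, Aqp5 at 3.01, Krt8 at 1.46, Krt18 at 1.24 and Krt19 at 0.101 CPM, and Foxi1 was at 0 in each I3C group.

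The genes lie on 7 chromosomes (positions from GENCODE, GRCm38). The claudins Cldn1, Cldn4, Cldn7 and Cldn12 lie at chr16:26356642-26371841, chr5:134945119-134946934, chr11:69964779-69967885 and chr5:5489537-5514958, and Cldn4 is the only member whose exons merge into 1 stretch. Ocln spans chr13:100496507-100552718, F11r chr1:171437535-171464603, Tjp1 chr7:65296165-65527781 and Tjp3 chr10:81273207-81291581. Tjp3 shares 40 exonic bases with Apba3 on the opposite strand, and the other 7 members share no exonic base with another gene.

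The promoters of the 2 members that changed after papain (Tjp3 and Cldn12) and of the member with the highest level per exon length (Cldn4) are shown as the 250 bases before the most upstream RefSeq start (GRCm38.p6), to show which of 4 motifs each holds. They lie at chr10:81291582-81291831, chr5:5514977-5515226 and chr5:134946935-134947184, each on the minus strand. Capitals mark matches on either strand to GCGTG, the core bound by the aryl hydrocarbon receptor, TGANTCA, the AP-1 element, AACCNGTT, an element of grainyhead-like factors, or CAGGTG, the E-box bound by Snail and Zeb repressors.
Tjp3: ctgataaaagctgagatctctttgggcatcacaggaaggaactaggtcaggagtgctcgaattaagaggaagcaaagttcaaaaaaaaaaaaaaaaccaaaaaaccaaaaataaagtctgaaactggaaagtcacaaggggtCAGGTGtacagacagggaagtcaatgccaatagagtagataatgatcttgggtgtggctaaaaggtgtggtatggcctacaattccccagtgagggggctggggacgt
Cldn12: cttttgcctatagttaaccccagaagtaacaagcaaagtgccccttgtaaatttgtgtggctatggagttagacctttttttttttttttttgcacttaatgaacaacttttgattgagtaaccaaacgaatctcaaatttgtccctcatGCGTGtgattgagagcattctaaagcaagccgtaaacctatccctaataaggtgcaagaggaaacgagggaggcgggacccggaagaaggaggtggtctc
Cldn4: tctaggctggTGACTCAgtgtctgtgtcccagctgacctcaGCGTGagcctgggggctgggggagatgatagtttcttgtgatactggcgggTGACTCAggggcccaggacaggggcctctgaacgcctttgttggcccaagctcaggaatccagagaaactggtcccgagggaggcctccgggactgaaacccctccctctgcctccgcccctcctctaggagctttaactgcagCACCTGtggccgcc
Cldn4 held 4 matches, 2 of them AP-1 elements, whereas Cldn12 held a single AhR core and Tjp3 a single E-box. Over the 8 members, the AhR core was present in the windows of 5 (28.3% of the 27025 genes with a window), the AP-1 element in 2 (6.85%), the E-box in 3 (17.1%) and the grainyhead-like element in 0 (1.74%). The windows of Cldn1 and Tjp1 held none of the 4, and no 2 matches overlapped in the windows shown. The Tjp1 window, chr7:65371245-65371494 on the minus strand, lies inside the GENCODE span of the gene given above. It precedes the 1 RefSeq start used, and the bases before the upstream end of the GENCODE span were not scanned. A match describes the letters of the window and no binding was measured.

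Levels can be compared between genes only per length, here as CPM per kilobase of merged exons. Cldn4 was the most abundant member in every group, from 98.5 ± 37.2 CPM per kb with vehicle on the I3C diet to 160 ± 38.9 CPM per kb with papain on the AhR-poor diet. F11r followed at 51.5 to 66.1 CPM per kb and Cldn1 at 40.3 to 45.0 CPM per kb as group means. The libraries of Cldn4 and F11r did not overlap in any group, and those of F11r and Cldn1 overlapped only with vehicle on the I3C diet.

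The lower part of the order differed between vehicle and papain. With vehicle, Tjp3 came next on both diets, at 34.2 ± 5.62 CPM per kb (AhR-poor) and 31.0 ± 5.51 CPM per kb (I3C), and its libraries overlapped those of Cldn1 but not those of Tjp1. With papain on the I3C diet, Tjp1 (18.9 ± 1.84 CPM per kb) stood before Tjp3 (13.2 ± 3.73 CPM per kb), with overlapping libraries. With papain on the AhR-poor diet, Tjp3 (16.2 ± 3.14 CPM per kb) still preceded Tjp1 (12.2 ± 1.35 CPM per kb), again with overlap. Ocln and Cldn12 lay between 4.01 and 7.49 CPM per kb in all groups, Ocln first except with papain on the I3C diet, and Cldn7 was last at 0.272 to 0.629 CPM per kb. Cldn4 and Cldn1 together made up 95.7% to 98.1% of the summed level of the 4 claudins in single libraries.

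**Figure D1:**
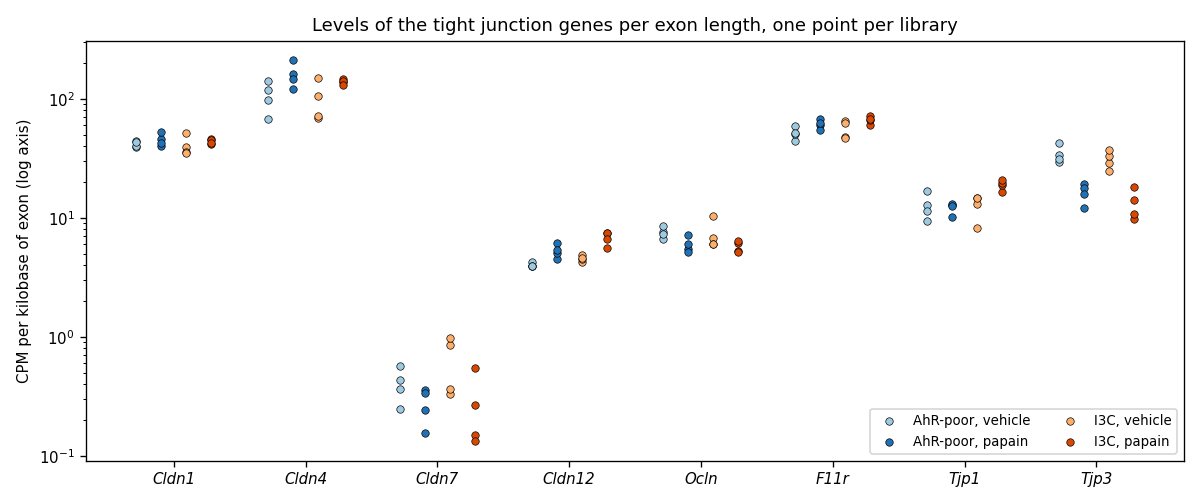
Level of each of the 8 genes in CPM per kilobase of merged exons (log axis), with 1 point per library and the 4 groups in colour. Cldn4, F11r and Cldn1 lie at the top and Cldn7, at 0.272 to 0.629 CPM per kb as group means, lies far below the others.

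The first question was how papain acted on these genes on each diet. In an edgeR quasi-likelihood F test over the 22155 genes, fitted with 4 group means, a gene was said to have risen or fallen at a Benjamini-Hochberg adjusted p below 0.01. After papain, Cldn12 rose and Tjp3 fell, on the AhR-poor diet as on the I3C diet, and the other 6 members did not pass the test on either diet. Thus 1 of 8 members rose on each diet, where 12.4% (AhR-poor) and 12.7% (I3C) of all genes tested rose, and 1 of 8 fell, where 10.1% and 12.9% of all genes fell. These counts lie near the share over all genes, and what follows concerns the single genes.

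Tjp3 encodes ZO-3, the scaffold found in epithelia and not in endothelium. On the AhR-poor diet it was at 109.9, 125, 116 and 157 CPM with vehicle and at 44.5, 71.2, 66.5 and 59.0 CPM with papain. On the I3C diet the vehicle libraries held 90.9, 107.7, 123 and 138 CPM, and the papain libraries 67.1, 36.4, 39.9 and 51.9 CPM. All 8 papain libraries were below all 8 vehicle libraries, and the I3C papain library T106 was the highest of its group. The log2 fold change was -1.07 (SE 0.197, edgeR adjusted p = 0.000590) on the AhR-poor diet and -1.24 (SE 0.199, adjusted p = 0.000151) on the I3C diet, and in an exact permutation test each comparison gave 0.0286, the smallest p that 4 against 4 libraries allow. Tjp3 was the only member to fall by more than 1 on the log2 scale with an adjusted p below 0.01, as did 2.42% of all genes on the AhR-poor diet and 5.29% on the I3C diet. In bulk RNA, fewer cells of a type and less RNA per cell cannot be told apart.

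The call for Tjp3 held without each of the 16 libraries in turn on either diet. With the mean log2 CPM of the fibroblast markers as a covariate, the value on the AhR-poor diet was -1.56 and lost the call (adjusted p = 0.0545). That fit called 2.20% of all genes changed on this diet, against 22.5% without the covariate. The summed level of granular layer markers also differed with papain. The 9 granular markers, loricrin and filaggrin among them, summed to 1105 ± 154 CPM with vehicle (920 to 1241) and 637 ± 137 CPM with papain (457 to 777) on the AhR-poor diet, and to 1086 ± 183 CPM (893 to 1328) and 562 ± 87.8 CPM (488 to 688) on the I3C diet. Of these 9 markers, 1 fell on each diet in edgeR, near the 10.1% and 12.9% of all genes that fell, with a median log2 fold change of -0.76 and -0.89, and none was at 0 in any group. That gene, named after its values were seen, was Tgm3, an enzyme that crosslinks cornified envelope proteins, at 655 and 307 CPM with vehicle and papain on the AhR-poor diet and 802 and 369 CPM on the I3C diet as means. Tgm3 had the highest level of the 9 markers in each group, and so weighs most in the sums. Cdsn (corneodesmosin) differed in the other direction without passing the test, by 0.50 and 0.54. Lce1a1, also named after its values were seen, did so on the AhR-poor diet alone (0.26). The part of these markers in the difference of Tjp3 was not tested.

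Cldn12 encodes a widely expressed claudin that lacks the usual tail motif for binding to zonula occludens proteins. On the AhR-poor diet it was at 16.5, 18.1, 16.8 and 16.5 CPM with vehicle and at 25.9, 19.1, 21.4 and 22.7 CPM with papain. On the I3C diet the vehicle libraries held 20.6, 17.8, 18.9 and 19.2 CPM, and the papain libraries 23.6, 31.5, 31.2 and 27.8 CPM. Within each diet every papain library was above every vehicle library. The log2 fold change was 0.39 (SE 0.101, edgeR adjusted p = 0.00542) on the AhR-poor diet and 0.58 (SE 0.101, adjusted p = 0.000164) on the I3C diet. On the AhR-poor diet the call was lost when T100, T102, T103, T104 or T112 was left out (adjusted p between 0.0119 and 0.0309, log2 fold change 0.31 without T104) and with the fibroblast covariate (0.74, adjusted p = 0.0580). On the I3C diet it held without each library in turn.

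**Figure D2:**
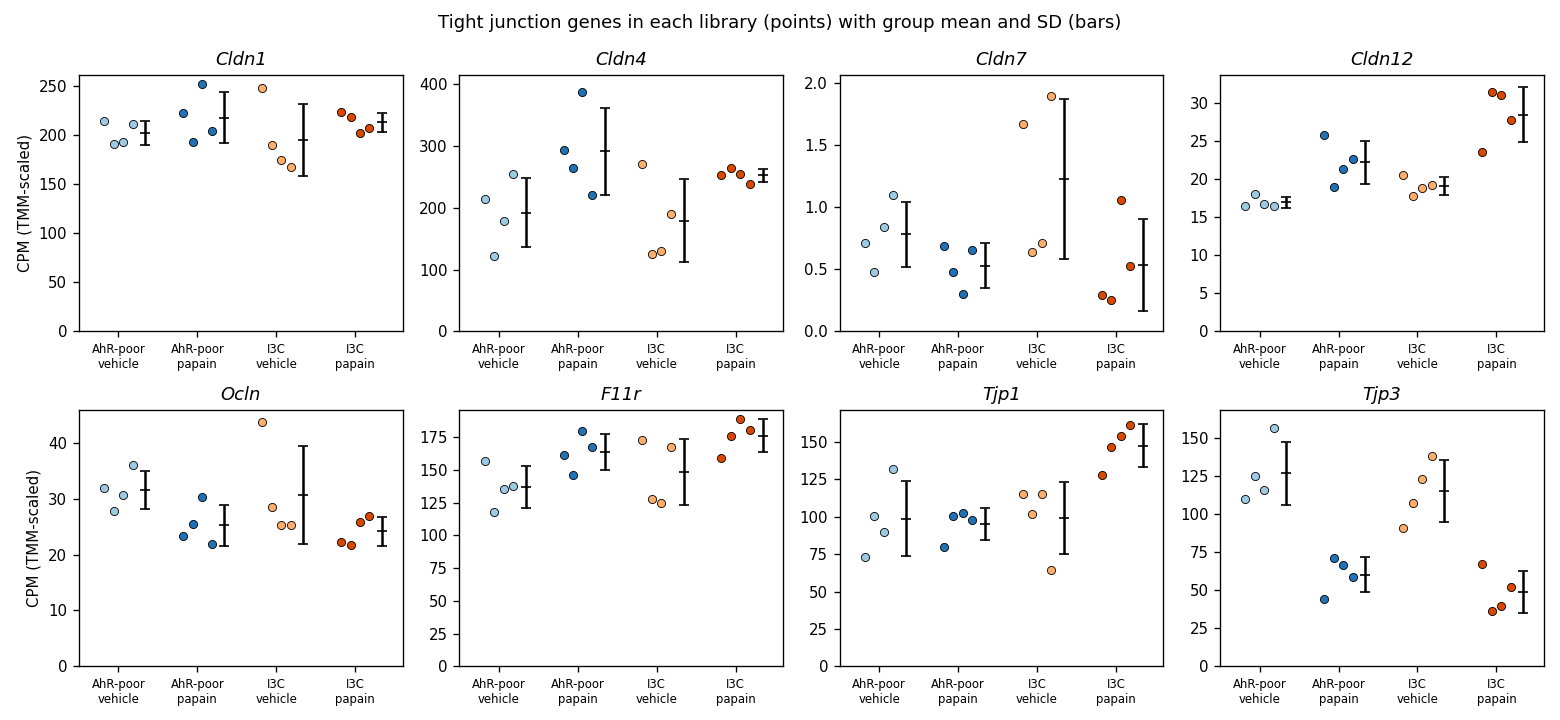
CPM of each of the 8 genes in the 16 libraries (points) with the group mean and SD beside them (n = 4), by diet and injection. Tjp3 lies between 36.4 and 71.2 CPM in the 8 papain libraries and between 90.9 and 157 CPM in the 8 vehicle libraries, and Cldn12 lies higher with papain within each diet.

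Tjp1 encodes ZO-1, the scaffold common to epithelia and endothelia, which also binds at adherens junctions. With vehicle it was at 73.4, 100.3, 89.5 and 132 CPM on the AhR-poor diet and at 115.2, 102.1, 116 and 64.2 CPM on the I3C diet. With papain it was at 79.7, 100.6, 102.8 and 97.8 CPM on the AhR-poor diet, inside the range of the vehicle libraries, and at 128, 146, 154 and 162 CPM on the I3C diet, above all vehicle libraries of that diet. The I3C vehicle library T111 was the lowest of all 16. The log2 fold change for I3C mice was 0.57 (SE 0.183, edgeR adjusted p = 0.0232), which missed the threshold, but passed it in DESeq2 (0.59, adjusted p = 0.00405) and when T103 was left out (adjusted p = 0.00780). T103 is an AhR-poor vehicle library outside this comparison, and the log2 fold change passed in only this 1 of 16 omissions (adjusted p up to 0.0538). On the AhR-poor diet it was -0.05 (95% interval -0.44 to 0.34, adjusted p = 0.859), with the sign turning to 0.32 under the fibroblast covariate and to 0.13 at most when a library was left out. Libraries of vehicle and papain did not overlap for 2 of 8 members on the AhR-poor diet and for 3 of 8 on the I3C diet, where 33.0% and 33.4% of all genes did not overlap.

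The claudins Cldn1 and Cldn4, which lead the epidermal set, did not pass the test. Cldn1, the claudin needed for the water barrier, was at 214, 191, 193 and 211 CPM with vehicle and 223, 193, 252 and 204 CPM with papain on the AhR-poor diet, and at 248, 189.5, 174 and 168 CPM and 224, 218, 203 and 207 CPM on the I3C diet. Vehicle and papain libraries overlapped on both diets, with a log2 fold change of 0.11 (95% interval -0.11 to 0.33) on the AhR-poor diet and 0.13 (-0.09 to 0.35) on the I3C diet. The intervals for Cldn1 were narrower than those of Cldn4.

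Cldn4, a claudin of the suprabasal layers, was at 213, 122, 178 and 254 CPM with vehicle and 292, 264, 387 and 219.9 CPM with papain on the AhR-poor diet. On the I3C diet it was at 270.1, 125, 130.3 and 190.0 CPM with vehicle and 252, 264, 255 and 238 CPM with papain. Its papain mean was above the vehicle mean on each diet, but the vehicle libraries T103 and T108 lay among or above the papain libraries. The log2 fold change was 0.60 (SE 0.257, edgeR adjusted p = 0.0905) on the AhR-poor diet and 0.50 (SE 0.257, adjusted p = 0.158) on the I3C diet.

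Cldn7, a claudin also found along the sides of simple epithelial cells, was close to the limit of these libraries, with 7 to 63 counts in each. It was at 0.708, 0.476, 0.841 and 1.10 CPM with vehicle and 0.689, 0.474, 0.303 and 0.653 CPM with papain on the AhR-poor diet, and at 1.67, 0.637, 0.707 and 1.89 CPM and 0.292, 0.257, 1.06 and 0.522 CPM on the I3C diet. Groups overlapped on each diet. The log2 fold change was -1.19 (SE 0.440, edgeR adjusted p = 0.0419) on the I3C diet and passed the threshold only when T114, the highest papain library, was left out (-1.75, adjusted p = 0.00542). On the AhR-poor diet it was -0.53 (SE 0.447, adjusted p = 0.404), and 1.01 with the fibroblast covariate.

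Occludin and F11r did not pass the test on either diet. Ocln was at 31.9, 27.8, 30.7 and 36.0 CPM with vehicle and 23.3, 25.5, 30.4 and 21.9 CPM with papain on the AhR-poor diet, and at 43.8, 28.6, 25.3 and 25.2 CPM and 22.3, 21.6, 25.9 and 27.0 CPM on the I3C diet. F11r, which encodes JAM-A, was at 157, 118, 136 and 138 CPM with vehicle and 161, 146, 179 and 167 CPM with papain on the AhR-poor diet, and at 173, 128, 125 and 167 CPM and 159, 176, 189 and 181 CPM on the I3C diet. The libraries of vehicle and papain overlapped for each gene on each diet. For Ocln the log2 fold change was -0.33 (SE 0.155, edgeR adjusted p = 0.120) and -0.35 (SE 0.155, adjusted p = 0.0955) with the AhR-poor feed and the I3C feed respectively, and for F11r 0.25 (SE 0.109, adjusted p = 0.0820) and 0.25 (SE 0.109, adjusted p = 0.0849).

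**Figure D3:**
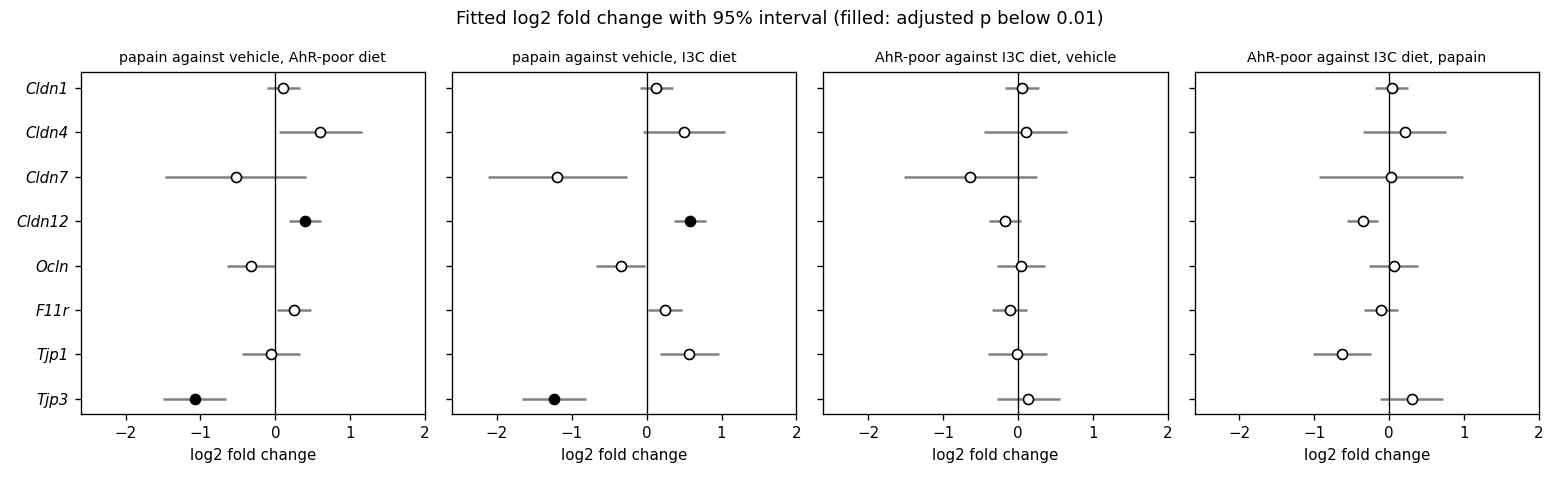
Fitted log2 fold change of the 8 genes in the 4 comparisons, with 95% intervals from edgeR, filled where the adjusted p was below 0.01. The only filled points are Tjp3 and Cldn12 in the papain comparisons, and the widest intervals are those of Cldn7.

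The second question was whether the diet acted on these genes. With vehicle, 0 of 8 members changed between the AhR-poor and the I3C diet in edgeR, where 1.72% of all genes tested did. An unadjusted p below 0.05 was reached by 0 members, DESeq2 also called 0 (3.18% of all genes), and the libraries of the diets overlapped for all 8 (8.12% of all genes did not overlap). For an unadjusted p below 0.05, here and below, the share over all genes is not given. Tjp3 had a log2 difference, AhR-poor minus I3C, of 0.14 (95% interval -0.27 to 0.56), Cldn12 of -0.17 (-0.39 to 0.040) and Cldn1 of 0.05 (-0.17 to 0.28). The interval for Cldn7 ran from -1.53 to 0.25 and so took in a 2-fold lower level on the AhR-poor diet, which these counts cannot tell from no difference.

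With papain, 0 of 8 members changed in edgeR, where 11.2% of all genes did, 2 reached an unadjusted p below 0.05, and DESeq2 called 2, where it called 15.1% of all genes. These 2 were Tjp1 and Cldn12. Tjp1 had a log2 difference, AhR-poor minus I3C, of -0.63 (SE 0.184, edgeR adjusted p = 0.0231), and its libraries, 79.7 to 102.8 CPM against 128 to 162 CPM, did not overlap, as for 24.9% of all genes. The value passed the threshold in DESeq2 (-0.62, adjusted p = 0.00457), in a fit of these 8 libraries alone (-0.63, adjusted p = 0.00109), without T111 (adjusted p = 0.00492) and without T103 (adjusted p = 0.00844). T111 and T103 are vehicle libraries outside this comparison, and the value passed in only these 2 of 16 omissions (adjusted p up to 0.0626). With the fibroblast covariate it was 0.27 (adjusted p = 1.0), in a fit that called 0 of all genes tested in this comparison. The fibroblast markers summed to between 277 and 695 CPM in the AhR-poor papain libraries and between 2.31 and 11.7 CPM in the I3C papain libraries, all 9 were higher on the AhR-poor diet in edgeR, and their part in this difference was not tested.

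Cldn12 differed between the diets after papain by -0.36 (SE 0.101, edgeR adjusted p = 0.0166), with the AhR-poor library T104 (25.9 CPM) above the I3C library T106 (23.6 CPM). It passed the threshold in DESeq2 (-0.35, adjusted p = 0.00967), without T106 (-0.43, adjusted p = 0.00386) and without T104 (-0.45, adjusted p = 0.00559). For Tjp3 the difference was 0.30 (95% interval -0.12 to 0.72, adjusted p = 0.324).

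The difference between the papain responses of the diets was tested as an interaction. No member passed in edgeR (0 of 8, against 0.0181% of all genes), 1 reached an unadjusted p below 0.05, and DESeq2 called 0 (1.10% of all genes). That member was Tjp1, with an interaction of -0.63 (SE 0.259, edgeR adjusted p = 0.319). For Tjp3 the interaction was 0.16 (SE 0.277, adjusted p = 0.844) and for Cldn12 -0.18 (SE 0.143, adjusted p = 0.614), so that a difference in their papain responses was not shown.

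The balance of Tjp1 and Tjp3 was described in single libraries. The ratio of Tjp1 to Tjp3 per exon length was 0.318, 0.381, 0.367 and 0.401 with vehicle and 0.851, 0.672, 0.735 and 0.788 with papain on the AhR-poor diet. On the I3C diet it was 0.602, 0.451, 0.445 and 0.220 with vehicle and 0.909, 1.91, 1.84 and 1.48 with papain. Papain libraries lay above vehicle libraries on each diet, and the I3C papain libraries lay above the AhR-poor papain libraries. The ratio restates the values of the 2 genes given above, and no share over other pairs of genes was taken. Between the diets with papain neither gene passed (edgeR adjusted p = 0.0231 for Tjp1 and 0.324 for Tjp3). Neither interaction passed in edgeR (adjusted p = 0.319 and 0.844).

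**Figure D4:**
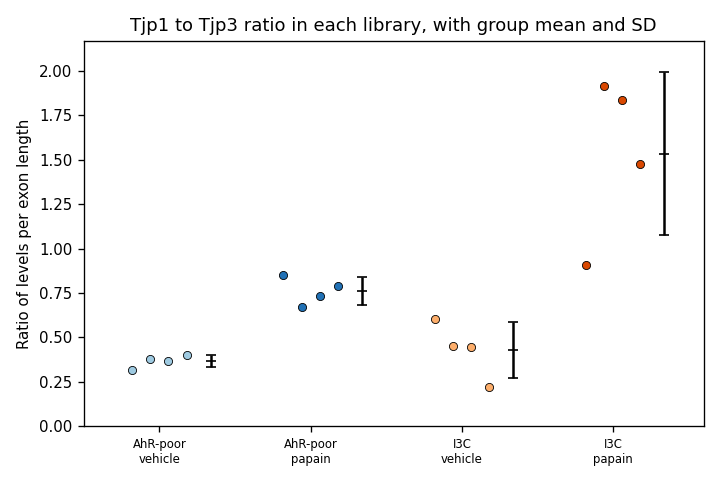
Ratio of Tjp1 to Tjp3 per exon length in each library (points), with the group mean and SD beside them (n = 4). The ratio is at most 0.602 in the vehicle libraries and at least 0.672 in the papain libraries.

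The members did not vary as a block. Over the 16 libraries, Pearson's r of log2 CPM between members ranged from -0.92 for Cldn12 and Tjp3 to 0.78 for Cldn4 and F11r. After subtraction of the group means it was -0.80 for Cldn12 and Tjp3, 0.76 for Cldn4 and F11r, 0.71 for Cldn1 and Cldn4, 0.77 for Cldn1 and Ocln and 0.73 for Cldn4 and Ocln. These values describe 16 libraries that share the same scaling, and the groups differ in the levels of several members, so no p is given.

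Among the 10426 genes with a symbol and a mean of at least 5 CPM, those most like each member over the 16 libraries were as follows, with the r left after subtracting group means second. For Tjp3 they were Camsap3 (r = 0.99, then 0.94) and Gal3st1 (0.99, then 0.92), and for Cldn12 Map3k20 (0.97, then 0.82) and Gtf2h1 (0.96, then 0.71). Tjp1 was followed most closely by Zdhhc5 (0.97, then 0.97) and Blzf1 (0.97, then 0.95), and F11r by Necap1 (0.95, then 0.90) and Sfn (0.94, then 0.89). Ocln went with Epc1 (0.91, then 0.92) and Rnf19a (0.90, then 0.93), Cldn4 with Noct (0.90, then 0.81) and Fam43a (0.89, then 0.81), Cldn1 with Slc6a14 (0.88, then 0.89) and Stx3 (0.85, then 0.92), and Cldn7 with Sars2 (0.94, then 0.92) and Echdc2 (0.87, then 0.80). The values for Tjp3 and Cldn12 rest in part on the gap between vehicle and papain.

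The other tight junction genes were read from a list of claudins, junctional receptors, scaffolds and polarity proteins, of which 51 were in the table and 43 were tested. After papain 4 rose and 3 fell on the AhR-poor diet (12.4% and 10.1% over all genes), and 4 rose and 3 fell on the I3C diet (12.7% and 12.9%). The median log2 fold change of the 43 was 0.05 on the AhR-poor diet and 0.00 on the I3C diet, beside 0.00 and -0.04 over all genes tested, and 0.03 and 0.19 over the 8 members. Prkcz, an atypical protein kinase C of the polarity complex that places the junction, rose from 7.32 ± 0.575 to 13.4 ± 1.70 CPM on the AhR-poor diet (log2 fold change 0.87, edgeR adjusted p = 0.000278) and from 6.13 ± 1.17 to 13.2 ± 2.74 CPM on the I3C diet (1.10, adjusted p = 2.17e-05). Prkci, another such kinase of the list named after its values were seen, was not among the genes that rose. It was at 159 ± 11.3 and 165 ± 8.84 CPM with vehicle and papain on the AhR-poor diet, and at 175 ± 19.9 and 214 ± 15.5 CPM on the I3C diet. Cldn8, a claudin best known from the distal nephron, fell on the I3C diet from 2.53 ± 0.338 to 0.847 ± 0.509 CPM (-1.56, adjusted p = 0.000452) and was at 3.02 ± 0.849 and 1.96 ± 0.276 CPM on the AhR-poor diet (-0.62, adjusted p = 0.102).

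Beside these, genes of the list that passed were named after their values were seen. Arhgef2, a junction-bound activator of RhoA, rose on both diets (log2 fold change 0.64 on the AhR-poor diet and 0.50 on the I3C diet), and Mpdz, a scaffold with many PDZ domains, fell on both (-0.50 and -0.50). On the AhR-poor diet Jam3 and Ildr2 rose (2.57 and 1.51), from 0.113 ± 0.0539 to 0.683 ± 0.283 CPM and from 0.255 ± 0.0644 to 0.742 ± 0.246 CPM. All 9 fibroblast markers rose in that comparison, from a sum of 130 to 532 CPM as means, and their part in the rise of Jam3 and Ildr2 was not tested. Pard3 and Pard6g fell (-0.69 and -0.25) on the AhR-poor diet, whereas on the I3C diet Patj and Sympk rose (0.63 and 0.30) and Ildr1 fell (-0.92). Marveld2 (tricellulin), which seals the corners where 3 cells meet, was at 46.1 ± 4.86 and 36.6 ± 3.45 CPM with vehicle and papain on the AhR-poor diet (-0.33, adjusted p = 0.0204) and at 44.1 ± 5.19 and 41.3 ± 5.23 CPM on the I3C diet (-0.10, adjusted p = 0.524).

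**Figure D5:**
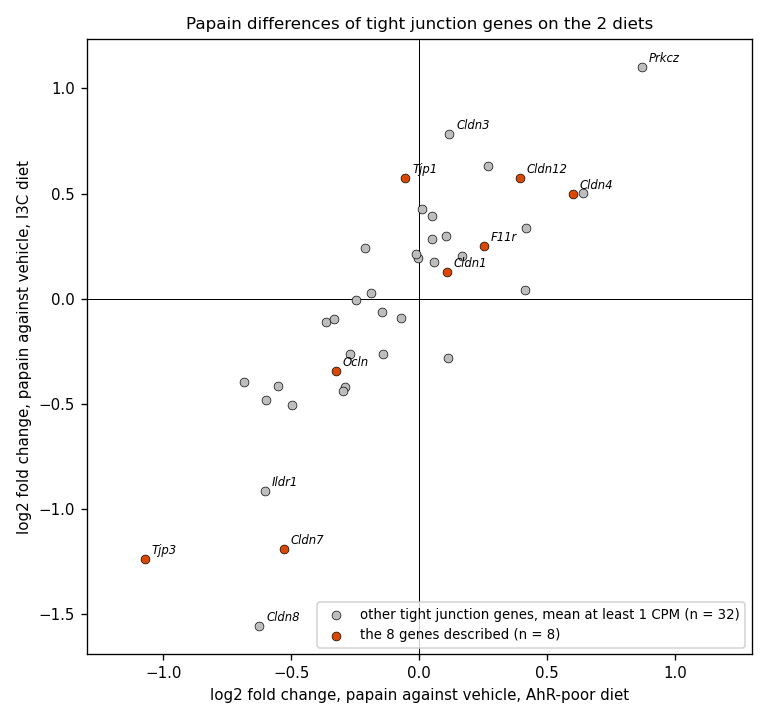
Log2 fold change after papain on the AhR-poor diet (horizontal) and on the I3C diet (vertical) for the 8 genes and for the 32 other tight junction genes with a mean of at least 1 CPM. Tjp3 lies lowest on the horizontal axis at -1.07, Cldn8 lowest on the vertical axis at -1.56, and Prkcz highest on both at 0.87 and 1.10.

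Between the diets, 3 of the 43 genes showed higher levels in AhR-poor than in I3C mice with vehicle, and 5 were higher and 4 lower with papain. Over the 22155 genes tested, 382 were higher with vehicle (1.72%), and 1802 were higher and 680 lower with papain (11.2% together). Cldn5, the claudin of blood vessel endothelium, was at 3.55 ± 2.17 CPM on the AhR-poor diet and 0.202 ± 0.152 CPM on the I3C diet with vehicle (log2 difference 4.08, edgeR adjusted p = 0.00111), and at 4.69 ± 1.63 and 0.216 ± 0.174 CPM with papain (4.45, adjusted p = 9.27e-05). The 7 endothelial markers, Pecam1 and Cdh5 among them, summed to 16.7 ± 8.57 and 1.54 ± 0.668 CPM with vehicle and to 36.4 ± 13.8 and 1.06 ± 0.482 CPM with papain, AhR-poor value first, none of them at 0 in a group. Of these markers 6 passed as higher in AhR-poor mice with vehicle and 7 with papain, and their part in the difference of Cldn5 was not tested. Jam2 and Ildr2 were higher in both comparisons and Jam3 with papain, each with a mean under 1 CPM, and Cldn8 was higher with papain (1.19, adjusted p = 0.00931). Those lower with papain were Amotl1, Prkci, Sympk and Pard6g, by -0.53 to -0.25, again named after their values were seen.

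Epcam, which binds and stabilises Cldn1 and Cldn7, rose from 112.7 ± 17.6 to 193 ± 17.8 CPM on the AhR-poor diet (log2 fold change 0.77, edgeR adjusted p = 8.04e-05) and from 100.97 ± 17.5 to 169 ± 16.2 CPM on the I3C diet (0.75, adjusted p = 9.04e-05). The study also used an antibody to EpCAM to stain epidermal Langerhans cells. Markers of these cells summed to 915 ± 59.4 and 956 ± 98.7 CPM with vehicle and papain on the AhR-poor diet. On the I3C diet they summed to 395 ± 148 and 432 ± 196 CPM. Cd207, named after its values were seen, was at 55.2 and 33.7 CPM on the AhR-poor diet and 17.9 and 13.9 CPM on the I3C diet. Mfge8 was also lower with papain on each diet, whereas Cd74, H2-Aa, H2-Ab1 and H2-Eb1 were higher, all without passing the test. The part of these cells in the rise of Epcam was not tested. Epcam belongs to a list of 7 claudin partners and surface proteases. Of these, 2 rose on the AhR-poor diet and 3 on the I3C diet in edgeR, beside 12.4% and 12.7% of all genes. Of the 9 adherens junction genes, 1 rose on the AhR-poor diet and 3 on the I3C diet, beside the same shares, among them Cdh3 (P-cadherin), which rose from 78.8 ± 4.63 to 149 ± 20.2 CPM (0.92, adjusted p = 1.33e-05) and from 91.7 ± 9.998 to 204 ± 36.4 CPM (1.15, adjusted p = 6.20e-07). Cdh1 (E-cadherin) was at 702 ± 66.2 and 686 ± 59.5 CPM on the AhR-poor diet (-0.03, adjusted p = 0.838) and at 705 ± 110 and 858 ± 64.9 CPM on the I3C diet (0.28, adjusted p = 0.0381).

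Of 9 transcription factors known to act on junction genes, 2 rose and 1 fell after papain on the AhR-poor diet, and 1 rose and 1 fell on the I3C diet, counts near those over all genes (12.4% rose and 10.1% fell, and 12.7% and 12.9%). Zeb1, a repressor of epithelial genes, rose from 3.61 ± 0.485 to 10.6 ± 3.66 CPM on the AhR-poor diet (log2 fold change 1.55, edgeR adjusted p = 5.01e-05) and from 1.73 ± 0.162 to 4.01 ± 1.28 CPM on the I3C diet (1.21, adjusted p = 0.000739). Snai1, another such repressor, rose from 0.694 ± 0.531 to 2.58 ± 0.770 CPM on the AhR-poor diet (1.90, adjusted p = 0.000579) and was at 0.610 ± 0.115 and 0.309 ± 0.0902 CPM on the I3C diet (-0.99, adjusted p = 0.0915). With papain, Snai1 and Zeb1 were higher on the AhR-poor diet by 3.07 and 1.40, the groups in which fibroblast markers also differ, and the part of those cells was not tested. Ovol2, which keeps cells epithelial, fell on the I3C diet from 7.19 ± 3.90 to 2.43 ± 0.276 CPM (-1.56, adjusted p = 0.000331) and was at 5.63 ± 1.84 and 3.64 ± 0.369 CPM on the AhR-poor diet (-0.63, adjusted p = 0.0974).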

How the data were processed

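Epidermal cells of 16 mice were sequenced (TruSeq Stranded mRNA). The authors aligned the reads with STAR to mm10 and deposited raw counts per gene, without normalization. The counting tool, the annotation and the strand setting are not given in the sources used here. Symbols, positions and exon lengths came from GENCODE M21 (GRCm38, 50376 identifiers matched, 224 not), promoter windows from RefSeq. Groups came from the labels, and the 8 members and all lists were chosen with earlier results of these data known.

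Genes with at least 10 counts in total entered edgeR 4.0.16 (R 4.3.3), with TMM factors, 4 group means and the robust quasi-likelihood F test, and p-values were Benjamini-Hochberg adjusted over 22155 genes. CPM were computed with the TMM factors. Two-sided exact permutation tests compared log2 CPM, 4 libraries against 4. Whether the 3 sequencing units named in the methods differ was not tested, since the labels do not give them, and p-values measure the spread between mice. Before the TMM adjustment, a count of 3 equals 0.0579 to 0.133 CPM, for counting error only. The genes named are all 8 members with every library value, from the other lists the genes that passed 0.01 with a log2 fold change beyond 1 in any comparison and a mean of at least 1 CPM, plus Marveld2, Cdh1 and Epcam, and the 2 genes most like each member. A gene that the rule also took whatever its values is not reported here, and genes outside the rule are marked in the text as named after their values were seen. Alternatives were RLE factors, library size only, 3 other count filters, DESeq2 1.42.0, 2 other thresholds, the fibroblast covariate, only the 8 libraries compared, and leaving out each library.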

Additional observations from a re-analysis of the deposited data

Results flagged for a closer look

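In a check of the 32 groups of 4 libraries (8 genes in 4 groups), the vehicle library T101 on the AhR-poor diet stood apart for Cldn12, at 18.1 CPM against 16.5 to 16.8 CPM in the other 3, a gap of 0.841 of the group's range. By chance about 1 group in 20 would stand apart in this way. The rise of Cldn12 on the AhR-poor diet kept its call without T101.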

How the results depend on the processing

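No paired analysis was possible because no replicate code recurs in another group. Of 947 values of single members under the alternatives, 863 kept their direction and their side of the threshold. The fall of Tjp3 lost its call only with the fibroblast covariate on the AhR-poor diet. In that fit 0 members and 2.20% of all genes changed after papain on that diet, and the cause was not tested.

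Papain changed 2 members on each diet, beside 22.5% (AhR-poor) and 25.7% (I3C) of all genes. With a log2 fold change beyond 1 as well, 1 passed on each diet, the falling Tjp3, where 2.42% and 5.29% of all genes fell so. At an adjusted p below 0.05, 4 passed on the I3C diet, as did 35.3% of all genes. When each library was left out in turn, 1 to 2 passed on the AhR-poor diet, and the shares over all genes in those fits are not given. For the diets with papain (0 members), DESeq2 called 2 (15.1% of all genes), an adjusted p below 0.05 called 2 (20.7%), the 8 libraries alone gave 1, and leaving out a library gave 0 to 1. The cause of these shifts was not tested, apart from the thresholds.

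Signs turned only for values that did not pass the test. With the fibroblast covariate, which differs between the diets itself, the log2 values that turned were as follows. For papain on the AhR-poor diet they were -0.060 for Cldn1, 1.01 for Cldn7 and 0.32 for Tjp1. For the diets with vehicle they were -0.17 for Cldn1, -0.67 for Cldn4, 1.48 for Cldn7, 0.30 for Cldn12, 0.48 for Tjp1 and -0.50 for Tjp3. For the diets with papain they were -0.38 for Cldn1, -1.21 for Cldn4, 0.51 for Cldn12, 0.049 for F11r, 0.27 for Tjp1 and -0.88 for Tjp3. For the interaction they were -0.54 for Cldn4, 0.21 for Cldn12 and -0.38 for Tjp3. With library size only, Tjp1 for the diets with vehicle was 0.040 and the interaction of Cldn1 was 0.033. With at least 10 counts in every library these were 0.010 and 0.012, and with every gene counted the interaction of F11r was -0.00172.

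Leaving out a library turned the sign of 12 values. Tjp1 after papain on the AhR-poor diet lay between -0.17 and 0.13. For the diets with vehicle, Cldn1 lay between -0.0082 and 0.19, Cldn4 between -0.070 and 0.37, Ocln between -0.048 and 0.26, and Tjp1 between -0.18 and 0.11. For the diets with papain, Cldn1 lay between -0.044 and 0.071, Cldn7 between -0.18 and 0.58, and Ocln between -0.035 and 0.12. The interaction lay between -0.16 and 0.048 for Cldn1, -0.17 and 0.28 for Cldn4, -0.20 and 0.12 for Ocln, and -0.077 and 0.10 for F11r. Among the members, depth limits Cldn7 most, with 7 to 63 counts per library.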
